A study of Homo sapiens with 9 samples.

Results

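The pentose phosphate pathway and the step that follows it were examined through 9 genes, which were selected by name from the 64253 gene IDs that were counted: PGLS and PGD of the oxidative arm, RPIA, RPE, TALDO1 and TKT of the non-oxidative arm, PRPS1 and PRPS2 of phosphoribosyl pyrophosphate (PRPP) synthesis, and the ribokinase RBKS. Each symbol had 1 gene ID, and all 9 were among the 16561 genes that passed the filter on low counts. RNA was sequenced from IMR90, a line of human fetal lung fibroblasts, kept at 2% oxygen and used at population doubling 30. The medium held 4.5 g/L glucose and 10% serum in all groups. All cells carried pLKO.1 lentiviral vectors and were selected with puromycin (3 ug/mL) for 7 days, and each group had 3 libraries, lettered a, b and c. Control cells received vector alone, which the sample labels call empty and the treatment text calls GFP. The shRRM2 cells received a hairpin against RRM2, a subunit of the reductase that makes deoxyribonucleotides, and the labels call this group senescence. The treatment text gives all cells a second infection 24 hours after the first, with GFP vector or, in the shRRM2/shp16 cells, with a hairpin directed at p16, a product of CDKN2A that restrains the cell cycle. The labels call the shRRM2/shp16 group senescence bypass. The p16 hairpin was never given without the RRM2 hairpin. The labels name 1 vector for each target and do not say whether the 3 libraries of a group came from separate infections, so the p-values measure the spread between these libraries, which may be technical.

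RRM2 transcript stood at 12.8% of control in shRRM2 and 36.5% in shRRM2/shp16, and CDKN2A in shRRM2/shp16 at 65.8% of its level in shRRM2. RRM2 transcript was thus 2.85 times as high in shRRM2/shp16 as in shRRM2. The added p16 hairpin and the higher RRM2 level cannot be told apart here. Below, a change with the p16 hairpin means only a difference between these groups. CDKN2A did not pass the test between shRRM2 and control (108% of control, adjusted p = 0.431). Its lower level in shRRM2/shp16 than in shRRM2 passed by edgeR (adjusted p = 7.0e-05) but not in the authors' deposited comparison (q = 0.237). CDKN2A was counted as a whole gene, at 79 to 142 reads per library, so its level is not that of p16 alone. The proliferation marker MKI67 was at 31.1% of control in shRRM2 and 37.6% in shRRM2/shp16, and CDKN1A, the p21 inhibitor gene, at 204% and 144%, so neither was at its control level in the group labelled bypass. Between 15770895 and 24873291 reads per library were assigned to genes. All 8 fibroblast markers were detected in every group, with a summed level of 37428 to 38605 CPM in control, 40609 to 41573 in shRRM2 and 29155 to 29821 in shRRM2/shp16 (CPM, read counts scaled to the effective size of each library). Single markers moved in opposite directions in shRRM2/shp16, with PDGFRA at 269% and COL3A1 at 211% of control, and VIM at 40.1% and THY1 at 47.8%. The summed level of the epithelial, endothelial or leukocyte markers was 2.93 CPM at most in any library. Reads assigned to no counted feature made up 17.6 to 18.9% of uniquely placed reads in control. Their share was 27.7 to 28.8% in shRRM2 and 23.5 to 24.4% in shRRM2/shp16. This tally does not separate reads in introns, between genes or on the opposite strand. The no-feature share and the fibroblast marker sum moved with the groups, and their part in the values below was not tested. The measurements are of RNA in bulk cultures, in which fewer cells expressing a gene and less RNA per cell cannot be told apart, and protein and translation were not measured.

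The pathway branches from glycolysis at glucose-6-phosphate. Its oxidative arm yields NADPH and ribulose-5-phosphate, and its non-oxidative arm interconverts sugar phosphates, so that ribose-5-phosphate can be made by either arm or passed back to glycolysis. PRPP, made from ribose-5-phosphate and ATP, supplies the ribose of purine, pyrimidine and NAD nucleotides, and through them the substrates of ribonucleotide reductase.

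The sequences around the start sites of PGD, RPIA, PRPS1 and PRPS2 are shown because PGD and PRPS1 had the largest fold changes of the members apart from the scarce RBKS, PRPS2 is the paralog of PRPS1 that behaved differently, and RPIA is the enzyme of ribose-5-phosphate formation. They are RefSeq promoter windows of 300 bases on GRCh38.p14, each ending 50 bases after the annotated start, on the gene's strand (plus for all 4), at chr1:10398814-10399113 for PGD, chr2:88691423-88691722 for RPIA, chrX:107628260-107628559 for PRPS1 and chrX:12791162-12791461 for PRPS2. Capitals mark matches to the motifs named after the sequences.
PGD: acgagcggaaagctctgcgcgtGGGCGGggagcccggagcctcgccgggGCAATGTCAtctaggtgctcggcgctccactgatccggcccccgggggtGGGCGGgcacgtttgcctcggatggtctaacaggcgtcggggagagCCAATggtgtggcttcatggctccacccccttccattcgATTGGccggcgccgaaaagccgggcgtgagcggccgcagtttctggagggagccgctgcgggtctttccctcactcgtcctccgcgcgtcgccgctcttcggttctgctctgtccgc
RPIA: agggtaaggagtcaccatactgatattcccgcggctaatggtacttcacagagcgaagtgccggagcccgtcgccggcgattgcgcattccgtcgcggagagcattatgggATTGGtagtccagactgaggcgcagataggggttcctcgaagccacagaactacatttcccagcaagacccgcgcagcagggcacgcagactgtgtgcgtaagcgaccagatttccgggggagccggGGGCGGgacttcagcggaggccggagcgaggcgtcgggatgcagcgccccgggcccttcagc
PRPS1: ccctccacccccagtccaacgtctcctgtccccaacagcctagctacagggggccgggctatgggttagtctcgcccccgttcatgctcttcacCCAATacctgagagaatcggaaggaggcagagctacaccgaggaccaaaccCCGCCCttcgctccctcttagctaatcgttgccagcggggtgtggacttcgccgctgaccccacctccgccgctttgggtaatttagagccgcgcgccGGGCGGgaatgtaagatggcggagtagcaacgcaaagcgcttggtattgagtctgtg
PRPS2: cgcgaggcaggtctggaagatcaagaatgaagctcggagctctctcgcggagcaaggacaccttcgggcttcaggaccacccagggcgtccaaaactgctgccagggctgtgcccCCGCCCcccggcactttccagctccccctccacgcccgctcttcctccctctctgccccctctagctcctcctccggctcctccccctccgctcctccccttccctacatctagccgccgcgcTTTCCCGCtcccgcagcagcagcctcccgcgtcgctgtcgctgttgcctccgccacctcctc
The motifs searched on both strands were the E-box CACGTG, the antioxidant response element core TGACNNNGC, the E2F site as TTTCCCGC or TTTGGCGC, the CCAAT box, the GC box GGGCGG and the cyclic AMP response element TGACGTCA. The windows of PRPS1 and PRPS2 shared the GC box, with 2 matches in PRPS1 and 1 in PRPS2, a motif found in 45% of the 35116 RefSeq promoter windows. PRPS1 alone of this pair held a CCAAT box (34.6% of all windows), and PRPS2 alone held an E2F letter string, TTTCCCGC, starting 12 bases before the start site (1.63% of all windows). The PGD window held an antioxidant response element core 201 bases before the start (13.3% of all windows), with 2 CCAAT boxes and 2 GC boxes. The RefSeq start used for PGD differs from that of GENCODE, whose PGD gene begins at chr1:10398592, upstream of the whole window. RPIA held 1 CCAAT box and 1 GC box. A match describes these letters only, since factor binding was not measured.

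After RRM2 knockdown 8 of the 9 members were lower than in control and RBKS was higher, by edgeR's quasi-likelihood test at a Benjamini-Hochberg adjusted p under 0.05. In that comparison 60.9% of all tested genes passed the same threshold, 29% higher and 31.8% lower. The median log2 fold change of the 9 members was -0.19, beside 0.00 over all tested genes. Between shRRM2/shp16 and shRRM2 the members divided. PGLS and PGD were higher in shRRM2/shp16, TKT, PRPS1 and RBKS were lower, and RPIA, RPE, TALDO1 and PRPS2 did not pass the test. There 61.1% of all tested genes passed, 31.9% higher and 29.1% lower, and the median was -0.03 for the members and 0.01 for all genes. Against control, shRRM2/shp16 cells had 6 members lower, none higher, and PGLS, PGD and RBKS without a call. In that comparison 62.4% of tested genes passed, 30% higher and 32.4% lower, with medians of -0.21 for the members and 0.01 for all genes. The 3 comparisons share libraries in pairs, so they are given side by side and not as independent results.

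**Figure D1:**
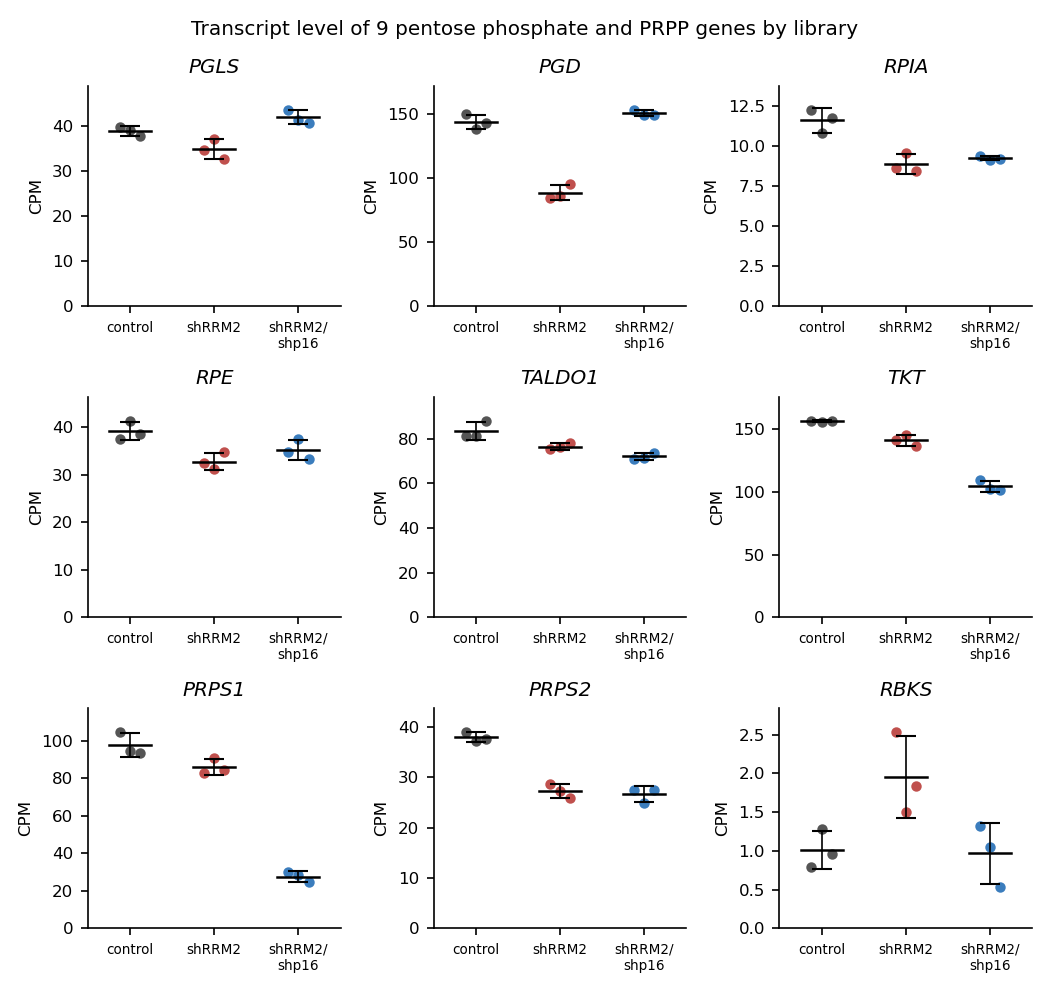
Transcript level in CPM of each of the 9 genes in each library (points, 3 per group), with the group mean and SD (bars); every vertical axis starts at 0 and has its own scale. PGD is lowest in shRRM2, PRPS1 is lowest in shRRM2/shp16, and RPIA and PRPS2 are low in both groups that carry the RRM2 hairpin.

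In the oxidative arm PGD and PGLS both fell with RRM2 knockdown and were higher in shRRM2/shp16 than in shRRM2. PGD, the 6-phosphogluconate dehydrogenase that forms ribulose-5-phosphate and NADPH (chr1:10398592-10420144, plus strand, GRCh38), had CPM values of 149.7, 138 and 143 in control libraries a, b and c. They were 84.7, 86.4 and 95.4 in shRRM2, and 153, 149.6 and 149.4 in shRRM2/shp16. The shRRM2 libraries were all below those of both other groups, whose ranges overlapped. PGD stood at 61.7% of control in shRRM2, a log2 fold change of -0.70 ± 0.04 (SE, adjusted p = 2.4e-19). With the p16 hairpin it was 1.70 times its shRRM2 level (log2 fold change 0.76 ± 0.04, adjusted p = 5.6e-21). Between shRRM2/shp16 and control the difference was 0.07 (95% interval -0.01 to 0.14, adjusted p = 0.111). That last call changed with the setting: edgeR fitted on the 6 libraries compared gave an adjusted p of 0.0361, and without control library a it was 0.0158, in both cases higher in shRRM2/shp16. PGD was also called higher with a minimum of 10 counts in every library and in every setting with limma on the deposited RPKM values. Those RPKM settings gave a log2 fold change of 0.17, without the TMM scaling of library sizes used in the main fit. TMM factors were 0.961 to 0.972 in control and 1.037 to 1.040 in shRRM2/shp16. In the RPKM settings the median over all tested genes shifted up by 0.037 to 0.092 in this comparison. The part of scaling in these PGD calls was not tested.

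PGLS, the lactonase that hydrolyses 6-phosphogluconolactone one step before PGD (chr19:17511629-17521288, plus strand), moved less. Its CPM was 38.9 ± 1.04 (SD, n = 3) in control, 34.9 ± 2.23 in shRRM2 and 42.0 ± 1.51 in shRRM2/shp16. The 3 groups did not overlap: control libraries held 37.8 to 39.9 CPM, shRRM2 libraries 32.8 to 37.3 and shRRM2/shp16 libraries 40.8 to 43.7. Its log2 fold change with RRM2 knockdown was -0.16 ± 0.06 (adjusted p = 0.012), which did not pass without control library a (adjusted p = 0.0567) or without shRRM2 library c (0.124). The rise from shRRM2 to shRRM2/shp16, 0.26 ± 0.05 (adjusted p = 5.1e-05), passed in every setting run. Against control PGLS differed by 0.11 in shRRM2/shp16 (95% interval 0.0004 to 0.21, adjusted p = 0.0752). It gained a call as higher with a minimum of 10 counts in every library and on the 6 libraries compared. The same held in every setting with limma on the deposited RPKM values, which carry no TMM scaling (log2 fold change 0.20 to 0.21). Of the PGLS exons, 261 bases lie opposite the long noncoding RNA gene AC010618.3, and the strand setting of the counting is not given in the sources used here.

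RPIA, the isomerase that turns ribulose-5-phosphate into ribose-5-phosphate (chr2:88691644-88750935, plus strand), fell with RRM2 knockdown and stayed low with the p16 hairpin. Its control libraries held 12.3, 10.8 and 11.7 CPM, its shRRM2 libraries 8.63, 9.58 and 8.44, and its shRRM2/shp16 libraries 9.40, 9.16 and 9.19. All 6 libraries with the RRM2 hairpin were below all 3 controls, and these 6 overlapped one another. RPIA was at 76.3% of control in shRRM2 (log2 fold change -0.39 ± 0.09, adjusted p = 4.7e-04) and at 79.4% in shRRM2/shp16 (-0.33 ± 0.09, adjusted p = 0.00168). Between shRRM2/shp16 and shRRM2 it differed by 0.06 with a 95% interval of -0.14 to 0.26 (adjusted p = 0.633). RPIA was counted at 136 to 293 reads per library. With limma on the deposited log2 RPKM values of all 9 libraries neither comparison of RPIA with control passed (adjusted p = 0.135 for shRRM2 and 0.106 for shRRM2/shp16), and on the 8 columns that match the counts both passed (0.013 and 0.0255). None of its 50-base words occurs in another annotated transcript.

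The shape of the RPIA profile across the 9 libraries was closest to those of LONP1, a mitochondrial protease, F10, coagulation factor X, and RBM10, an RNA-binding protein, among 10966 genes compared. The measure was the root mean square difference of gene-centred log2 CPM, which was 0.035 for LONP1, 0.036 for F10 and 0.038 for RBM10. LONP1, for example, had mean levels of 95.9, 75.3 and 78.6 CPM in control, shRRM2 and shRRM2/shp16. Among the members PRPS2 was closest to RPIA, at 0.10, and RPIA was in turn closest to PRPS2. RPE and TALDO1 were likewise each other's closest members, at 0.11, whereas PRPS1 was farthest from any other member, with TKT as its closest at 0.58.

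RPE, the epimerase that turns ribulose-5-phosphate into xylulose-5-phosphate (chr2:210002565-210022259, plus strand), had 39.2 ± 1.96 CPM in control, 32.8 ± 1.81 in shRRM2 and 35.3 ± 2.14 in shRRM2/shp16. Its log2 fold change with RRM2 knockdown was -0.25 ± 0.06 (adjusted p = 2.1e-04), and the shRRM2 libraries (31.2 to 34.8 CPM) lay below the controls (37.6 to 41.4 CPM). The shRRM2/shp16 libraries, at 33.4 to 37.6 CPM, overlapped those of shRRM2, with a difference of 0.11 (95% interval -0.01 to 0.22, adjusted p = 0.118) that passed without shRRM2 library c (0.0458). Against control the log2 fold change in shRRM2/shp16 was -0.15 ± 0.06 (adjusted p = 0.0195), a call lost with DESeq2 (0.0595), without control library b (0.148), without shRRM2/shp16 library a (0.071) and without shRRM2/shp16 library c (0.157). The count of RPE is uncertain in another way, since 29.9% of its 50-base words occur in other annotated transcripts, mainly KANSL1L, which lies on the opposite strand and shares 837 exon bases with it.

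TALDO1 and TKT, the transaldolase and the transketolase that move carbon units between sugar phosphates, declined from control to shRRM2 and were lowest in shRRM2/shp16. TKT (chr3:53224707-53256052, minus strand) held 157, 155 and 156 CPM in control, 141, 145 and 136 in shRRM2, and 109, 103 and 101 in shRRM2/shp16. No library of one group reached the range of another. The log2 fold change of TKT in shRRM2 was -0.15 ± 0.03 against control (adjusted p = 3.4e-04). With the p16 hairpin it was lower again, at -0.43 ± 0.04 against shRRM2 (adjusted p = 5.6e-14), and stood at 66.9% of control (-0.58 ± 0.04, adjusted p = 1.4e-18).

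TALDO1 (chr11:747329-765024, plus strand) changed over a narrower range, from 83.5 ± 4.04 CPM in control to 76.5 ± 1.44 in shRRM2 and 72.0 ± 1.36 in shRRM2/shp16. Its ranges did not overlap, with 81.1 to 88.1 CPM in control, 75.2 to 78.0 in shRRM2 and 71.0 to 73.6 in shRRM2/shp16. The step from control to shRRM2, -0.12 ± 0.04 (adjusted p = 0.01), did not pass without control library c (0.0743) or without shRRM2 library a (0.0511). The step from shRRM2 to shRRM2/shp16, -0.09 ± 0.04 (adjusted p = 0.0741), missed the threshold but passed with another set of size factors (0.0451), with a minimum of 10 counts in every library (0.0423) and on the 6 libraries compared (0.0409). Against control the log2 fold change in shRRM2/shp16 was -0.21 ± 0.04 (adjusted p = 2.3e-05).

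**Figure D2:**
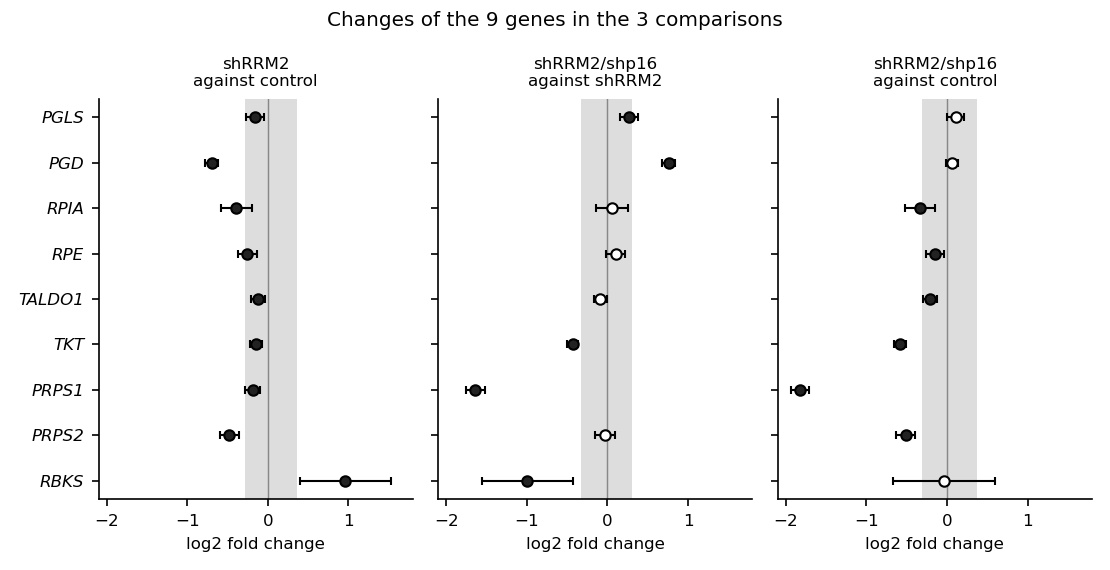
Log2 fold change of each gene in the 3 comparisons, from edgeR's quasi-likelihood fit, with 95% intervals (bars); filled points passed the threshold, open points did not, and the grey band spans the middle 50% of all tested genes. The intervals of RPIA, RPE and PRPS2 lie below 0 in both comparisons with control and include 0 between shRRM2/shp16 and shRRM2, whereas PGD and PRPS1 take opposite directions in the latter.

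The largest change of any member in a comparison was that of PRPS1 in shRRM2/shp16 against control. PRPS1 and PRPS2 encode the PRPP synthetases, both on the X chromosome (PRPS1 at chrX:107628424-107651026 and PRPS2 at chrX:12791355-12824222, plus strand). PRPS1 was present at 105, 94.5 and 93.7 CPM in control, 82.6, 90.8 and 84.2 in shRRM2, and 29.8, 28.4 and 24.6 in shRRM2/shp16. The shRRM2/shp16 libraries lay far below the other 6, and the shRRM2 libraries lay just below the controls. With RRM2 knockdown alone PRPS1 fell by 0.19 ± 0.05 on the log2 scale (adjusted p = 6.5e-04). In shRRM2/shp16 it was at 32.1% of shRRM2 (-1.64 ± 0.06, adjusted p = 1.7e-27) and at 28.2% of control (-1.83 ± 0.05, adjusted p = 7.3e-30). Among all tested genes 2.18% had a lower fold change than PRPS1 against shRRM2, and 1.05% against control.

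PRPS2 did not follow PRPS1. Its control libraries held 39.1, 37.2 and 37.6 CPM, its shRRM2 libraries 28.6, 27.3 and 25.9, and its shRRM2/shp16 libraries 27.5, 24.8 and 27.6. Both groups with the RRM2 hairpin were below every control library and overlapped each other. PRPS2 stood at 71.7% of control in shRRM2 (-0.48 ± 0.06, adjusted p = 2.2e-09) and 70.0% in shRRM2/shp16 (-0.51 ± 0.06, adjusted p = 1.7e-10). The p16 hairpin was accompanied by a difference of -0.03 (95% interval -0.16 to 0.09, adjusted p = 0.657).

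PRPS1 made up 72.8, 71.8 and 71.4% of the summed PRPS1 and PRPS2 counts in control, 74.3, 76.9 and 76.5% in shRRM2, and 52.0, 53.3 and 47.1% in shRRM2/shp16. The group ranges did not overlap. The difference in mean share was -25.1 percentage points for shRRM2/shp16 against shRRM2, -21.2 points for shRRM2/shp16 against control and 3.89 points for shRRM2 against control. Each of these 3 differences had a two-sided exact permutation p of 0.1, also after adjustment over the 3, which is the smallest that 3 libraries against 3 allow. Per base of the authors' gene lengths the share of PRPS1 was 75.7%, 79.2% and 55.5% in control, shRRM2 and shRRM2/shp16. The summed CPM of the pair was 136 ± 7.22, 113 ± 4.39 and 54.2 ± 2.73. Of the 50-base words of PRPS1 2.69% occur in other annotated transcripts, and none of PRPS2.

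**Figure D3:**
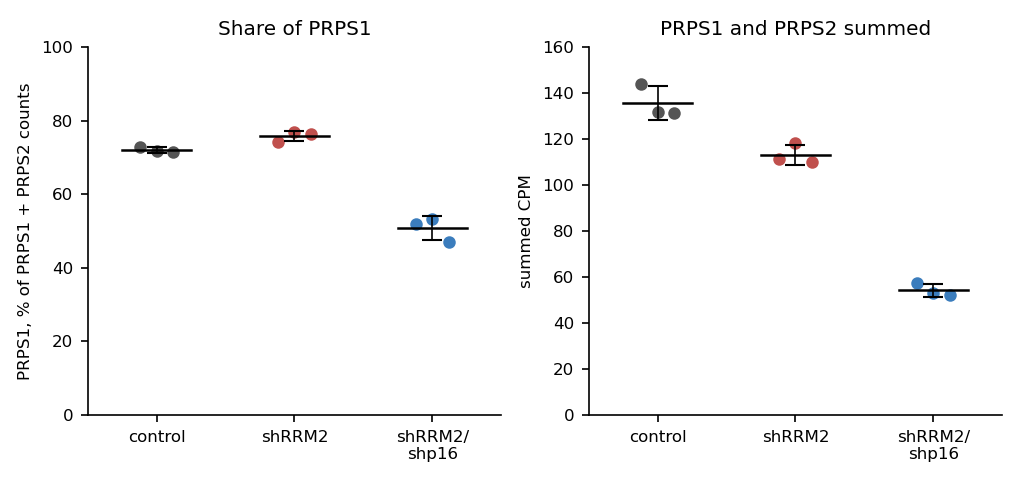
PRPS1 as a percent of PRPS1 plus PRPS2 counts in each library (points), left, and the summed CPM of the pair, right, with the group mean and SD (bars). On the left the shRRM2/shp16 libraries lie between 47.1 and 53.3%, below the 71.4 to 76.9% of the other 6.

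RBKS, the kinase that phosphorylates free ribose to ribose-5-phosphate (chr2:27781364-27891098, minus strand), was scarce, with 10 to 40 reads per library. It had 0.796, 1.29 and 0.953 CPM in control, 2.54, 1.502 and 1.84 in shRRM2, and 1.32, 1.05 and 0.537 in shRRM2/shp16. The shRRM2 libraries were above those of both other groups, whose ranges overlapped. RBKS was 1.95-fold higher in shRRM2 than in control (0.96 ± 0.28 on the log2 scale, adjusted p = 0.00282) and at 50.1% of its shRRM2 level in shRRM2/shp16 (adjusted p = 0.00213). Against control shRRM2/shp16 differed by -0.03, with a wide 95% interval of -0.66 to 0.60 (adjusted p = 0.934). Neither call passed with limma on the deposited log2 RPKM values (adjusted p = 0.261 for shRRM2 against control and 0.258 for shRRM2/shp16 against shRRM2), and 122 of its exon bases lie opposite BABAM2.

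Divided by the gene length that the authors used, the control levels in CPM per kilobase ran from PGD (48.5) and PRPS1 (42.8) through TALDO1 (27.8), TKT (16.4), PRPS2 (13.8), PGLS (13.7), RPE (11.1) and RPIA (6.28) to RBKS (0.279). PRPS2 and PGLS did not differ beyond their spread in control. In shRRM2 PRPS1 came first at 37.7 CPM per kilobase, ahead of PGD at 29.9. In shRRM2/shp16 PGD was first at 50.9 CPM per kilobase, while PRPS1, at 12.1, came after TALDO1 (24.0) and PGLS (14.7). Its order against TKT (10.98) is not settled, since the authors' length for PRPS1 is 2280 bases and its merged exons in GENCODE span 2623. RPIA, at 4.81 in shRRM2 and 5.01 in shRRM2/shp16, was the lowest member but RBKS in all 3 groups. The place of TKT depends on its merged exon length of 9507 bases, the longest of the 9.

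**Figure D4:**
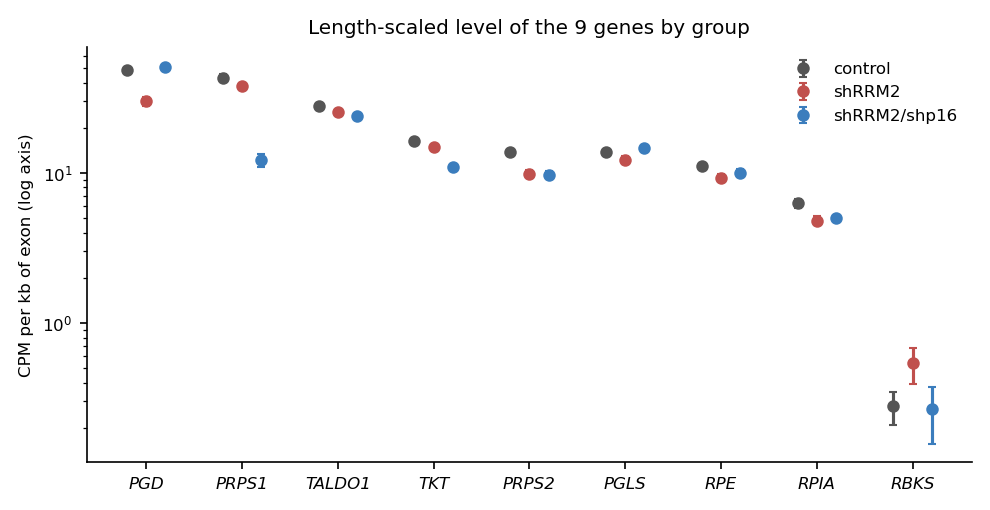
Level of each gene in CPM per kilobase of the authors' gene length, on a log axis, as group means with SD (n = 3). PGD leads in shRRM2/shp16, and RPIA and RBKS are the lowest members in every group.

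The summed level of the 9 members per length was 176.5 to 185.7 CPM per kilobase in control, 141.8 to 147.0 in shRRM2 and 135.2 to 140.6 in shRRM2/shp16. PGD made up 26.4 to 27.2% of the sum in control, 19.8 to 22.1% in shRRM2 and 36.8 to 37.3% in shRRM2/shp16. PRPS1 made up 22.9 to 24.8% in control, 25.4 to 27.1% in shRRM2 and 7.97 to 9.29% in shRRM2/shp16.

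The authors' deposited table compares shRRM2/shp16 with shRRM2 in FPKM. In the authors' deposited table PRPS1 went from 59.6 to 18.4 FPKM (log2 fold change -1.69, q = 4.44e-04), PGD from 48.0 to 82.1 (0.77, q = 4.44e-04) and TKT from 69.9 to 53.7 (-0.38, q = 4.44e-04). PGLS was also marked significant in the authors' deposited table (0.28, q = 0.0135). In the authors' deposited table RBKS was not significant (-0.96, q = 0.434), nor was RPIA (0.08, q = 0.680), and TALDO1 (0.07, q = 0.839) and PRPS2 (0.16, q = 0.281) had the opposite sign to the counts without significance in either.

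Of 11 other genes of the pathway and its PRPP step, 7 were tested, and the paralogs TKTL1, TKTL2, RPEL1 and PRPS1L1 had 1 read at most in any library. In shRRM2 against control 0 of the 7 were higher and 4 lower (median log2 fold change -0.18), in shRRM2/shp16 against shRRM2 3 were higher and 1 lower (0.19), and against control 1 was higher and 3 lower (-0.22). Of all tested genes 60.9, 61.1 and 62.4% passed in the same order, with medians of 0.00, 0.01 and 0.01. PRPSAP1, which binds the PRPP synthetases, followed the pattern of a fall and a partial return, at 46.3 CPM in control, 27.4 in shRRM2 and 35.2 in shRRM2/shp16, with all 3 differences past the threshold. H6PD, which carries out the first oxidative steps in the endoplasmic reticulum, differed by -0.02 in shRRM2 against control (adjusted p = 0.743) and rose by 0.41 ± 0.04 on the log2 scale with the p16 hairpin (adjusted p = 7.5e-13).

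All 7 enzymes that use PRPP were tested. In shRRM2 against control 2 were higher and 4 lower (median -0.22), in shRRM2/shp16 against shRRM2 2 were higher and 1 lower (0.08), and against control 1 was higher and 5 lower (-0.27). The shares of all tested genes that passed were 60.9, 61.1 and 62.4% in the same order, with medians of 0.00, 0.01 and 0.01. PPAT, which opens purine synthesis, fell by 0.65 ± 0.07 on the log2 scale with RRM2 knockdown (adjusted p = 2.7e-11) and rose by 0.37 ± 0.07 with the p16 hairpin (adjusted p = 9.3e-06). HPRT1, which salvages hypoxanthine and guanine, fell by 0.80 in shRRM2 and by 0.82 in shRRM2/shp16 against control on the log2 scale (adjusted p = 2.1e-12 and 3.6e-13). NAMPT, which uses PRPP to make the NAD precursor nicotinamide mononucleotide, ran the other way to PRPS1, at 29.9 ± 0.83 CPM in control, 54.8 ± 4.26 in shRRM2 and 342 ± 8.30 in shRRM2/shp16. It rose by 2.64 ± 0.04 from shRRM2 to shRRM2/shp16 (adjusted p = 5.4e-41). QPRT, another NAD-directed PRPP user, fell by 0.97 ± 0.08 in that comparison (adjusted p = 1.5e-14).

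Of 11 glycolytic enzymes around the branch points, 10 were tested. In shRRM2 against control 2 were higher and 8 lower (median -0.33). In shRRM2/shp16 against shRRM2 3 were higher and 5 lower (-0.08), and against control 4 were higher and 6 lower (-0.36). Beside these, 60.9, 61.1 and 62.4% of all tested genes passed in the same order, with medians of 0.00, 0.01 and 0.01. The pair that rose with RRM2 knockdown was HK2, the hexokinase that forms glucose-6-phosphate (72.4, 156 and 114 CPM in the 3 groups), and TIGAR, a phosphatase that lowers fructose-2,6-bisphosphate (22.5, 33.7 and 28.8 CPM). GPI, which draws glucose-6-phosphate into glycolysis, fell by 0.37 ± 0.03 (adjusted p = 3.4e-15).

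**Figure D5:**
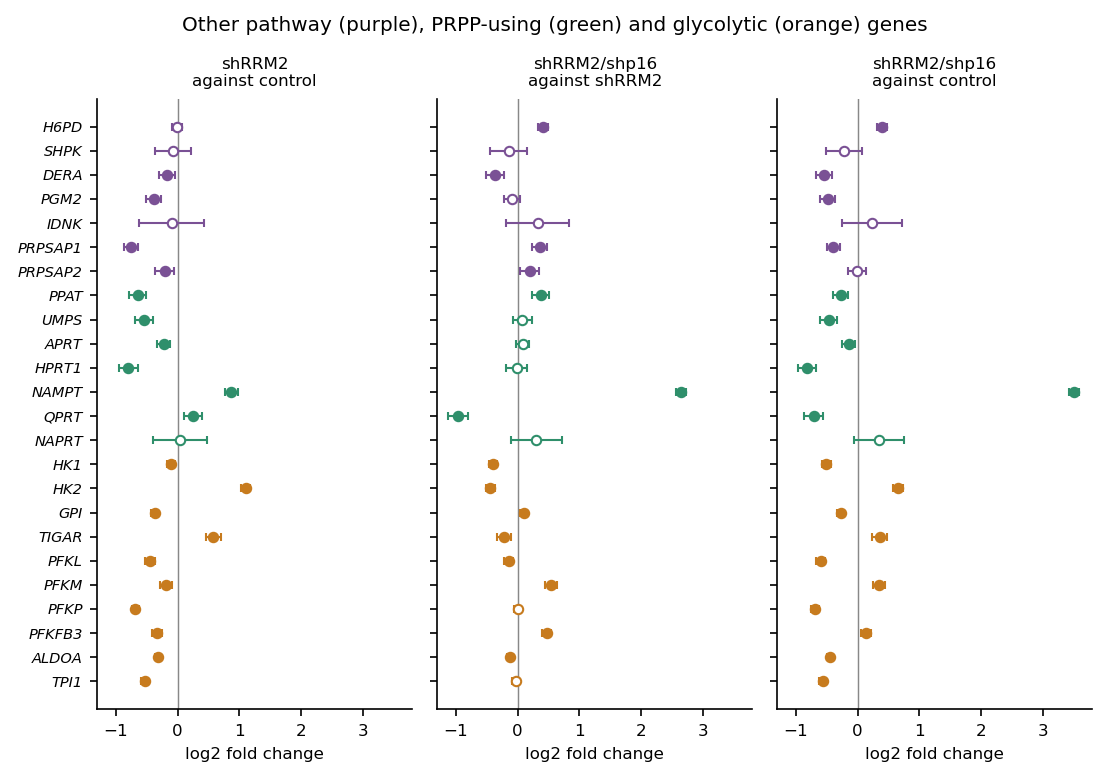
Log2 fold change in the 3 comparisons of the tested genes of the other pathway (purple), PRPP-using (green) and glycolytic (orange) lists, with 95% intervals (bars); filled points passed the threshold and open points did not. NAMPT stands apart at 2.64 in shRRM2/shp16 against shRRM2 and 3.51 against control.

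With limma on the deposited log2 RPKM values, 1 of the 9 members (PGD) passed in shRRM2 against control, and 4 (PGD, RPIA, RPE and PRPS2) passed when the column of shRRM2 library c, which does not match its count file, was left out, a setting added after the data were seen. In shRRM2/shp16 against shRRM2, PGLS, PGD, TKT and PRPS1 passed under every setting run. In shRRM2/shp16 against control, limma on log2(RPKM + 1) gave no call to RPIA, RPE or TALDO1. It called PGLS and PGD higher (adjusted p = 0.00906 and 0.0196). The RPKM values carry no TMM scaling, whose part in the calls of PGLS and PGD was not tested. RPIA passed with a mean RPKM of at least 1 (0.043) and on the matching columns (0.0255), TALDO1 passed with a mean RPKM of at least 1 (0.0365), and RPE passed in none of the RPKM settings.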

How the data were processed

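RNA libraries (ribosomal RNA removed, strand-preserving kit, per the labels' protocols) were made from 9 IMR90 samples in 3 groups, and groups were taken from the sample labels. The authors deposited raw read counts per gene for each library. The submitters' processing notes name GRCh38, TopHat2 2.0.9, Cufflinks 2.0.2 and Cuffdiff, and the counter's strand setting is not given in the sources used here. The authors also deposited log2 RPKM values per library, which hold log2(x + 1) with x as RPKM divided by 1000, per the file headers and the values. The column of shRRM2 library c does not match its counts, and the other 8 do. The authors' deposited table holds Cuffdiff FPKM, log2 fold changes, a test statistic (score), and p-values and q-values. The closing tally lines, which name no gene, were left out: reads with no feature are given in the report, ambiguous reads were 3.74 to 6.02% of unique reads, and reads not placed uniquely were 40.35 to 44.87% of all.

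Counts were filtered with filterByExpr, scaled by TMM and fitted in 1 model over all 9 libraries (edgeR 4.0.16 quasi-likelihood in R 4.3.3, 6 residual degrees of freedom), with Benjamini-Hochberg adjustment over 16561 genes and a threshold of 0.05. CPM uses TMM-scaled library sizes. The matching RPKM columns are scaled to total gene counts, and limma was run on the RPKM values without TMM factors. The SE is the size of the log2 fold change over the square root of F. Alternatives used DESeq2 1.42.0, limma 3.58.1, other filters and scalings, and leaving out each library. Scripts were checked on simulated data. Levels per kilobase use the authors' gene lengths, recovered from the 8 matching RPKM columns. Exon lengths, positions and overlaps came from GENCODE release 29 on GRCh38, and promoters from RefSeq, where all 9 symbols matched. Libraries of 1 group differed by more than counting noise (chi-square per degree of freedom 1.41 to 2.70), so none was merged. Members and gene lists were chosen with earlier results of these data known. All members are named, lists are given by counts and medians, and the 3 genes closest to RPIA were taken by smallest distance among tested genes with a symbol and a mean log2 CPM no more than 1 below that of RPIA, after adding 0.5 CPM. 1 gene of the list of other pathway genes is not reported here. Depth limits RBKS and, less so, RPIA.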

Additional observations from a re-analysis of the deposited data

How the results depend on the processing

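Of the member results under alternative settings no called value reversed: 365 kept their call or its absence, 17 gained a call and 47 lost one. Count-based settings kept 307 of 324, and RPKM-based settings 58 of 105; the cause of that gap was not tested. In shRRM2 against control the members called fell from 9 to 1 with limma on log2(RPKM + 1), 1 with log2(RPKM + 0.1), 2 with a mean RPKM of at least 1 and 4 on the 8 matching columns, and all genes called fell from 10079 to 6506, 6570, 6702 and 7846 in the same settings. RPKM settings also moved the share of higher calls in shRRM2/shp16 against shRRM2 from 52.3% to between 60% and 62.7%. DESeq2 called 8394, 8485 and 8790 genes in the 3 comparisons. Leaving out single libraries gave 8 to 9 members in shRRM2 against control, 5 to 6 in shRRM2/shp16 against shRRM2 and 5 to 7 against control, over 9459 to 9672, 9520 to 9690 and 9744 to 9987 genes called. The PRPS1 share differed by 3.39 to 4.69, -26.3 to -23.2 and -22.4 to -19.3 percentage points in the same order. With the replicate block, 9, 5 and 6 members and 10101, 10134 and 10388 genes were called. As deviations from their group means, same-letter libraries of different groups correlated at -0.020 to 0.049 and other pairs at -0.048 to 0.036. These ranges overlapped. They cannot settle whether a letter marks a shared day, infection or batch, which the labels do not say. Depth limits RBKS most, at 10 to 40 reads per library.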
